A study of Mus musculus with 4 samples.

Results

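The homeobox genes followed here across 4 two-colour Agilent arrays are 6 that are known from the mouse placenta: Rhox5, Rhox6, Rhox9, Esx1, Dlx3 and Msx2. The genes were taken by name from the non-control spots, with the older names Pem, Psx1 and Psx2 for Rhox5, Rhox6 and Rhox9. They accounted for 6 of 41174 probes and 15 of 43379 non-control spots, because Msx2 was printed as 10 spots of 1 probe and each of the other genes as 1 spot. All 6 passed the filter on dim probes and belonged to the 21419 genes tested.

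Homeobox genes encode transcription factors that bind DNA through a homeodomain, which commonly reads a TAAT core. The Rhox genes form a cluster on the X chromosome whose members are active mainly in the placenta and in germ cells or their supporting cells, and Rhox5 (Pem), Rhox6 (Psx1) and Rhox9 (Psx2) were first described in placenta or in embryonic and trophoblast cells. Esx1 is another X-linked homeobox gene, and its loss impairs the growth and blood vessels of the labyrinth, the exchange layer of the placenta. Dlx3 is needed for that layer to form, and Esx1 and Pgf, the placental growth factor, are reported downstream of it. Msx2 is a common target of BMP signalling, and Msx proteins are repressors that can pair with Dlx proteins, which mostly activate.

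The cells were ZHBTc4, a mouse embryonic stem cell line that carries a transgene as its source of Oct4 (Pou5f1), the transcription factor that keeps such cells undifferentiated. Doxycycline shuts that transgene off, after which ZHBTc4 cells are known to turn toward trophoblast. Per the labels the cells came off irradiated fibroblast feeders, had 2 passages on gelatin and received 2 µg doxycycline (volume not stated) for 48 h. The study's title concerns the histone demethylase LSD1 (Kdm1a) in differentiating embryonic stem cells.

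The dox group held 2 arrays of cells given doxycycline for 48 h, and its samples are titled as the controls. The dox+TCP group held 2 arrays of cells given doxycycline and TCP for 48 h. The labels do not spell out TCP, a usual short form of tranylcypromine, which inhibits monoamine oxidases and LSD1. Treated RNA was in Cy5 on every array. Cy3 held ZHBTc4 RNA with no treatment named, called the reference below. No dyes were swapped, so a probe's own dye effect remains whenever a treated sample is set against the reference, and drops out when the treated groups are set against each other. All samples came from 1 cell line, and effects of the drug doxycycline cannot be told apart from those of Oct4 loss. The reference counts as 1 control sample and its own spread is left out of the tests. In RNA of whole cultures, fewer cells with a transcript and less of it per cell cannot be told apart.

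Promoters of Rhox5, Esx1 and Msx2 were found in the RefSeq table of the assembly GRCm38.p6, which matched 3 of the 6 genes. They are shown because these genes all lay above the reference and belong to the class of factors that reads TAAT. Each line gives the 250 bases before the start of transcription, 5′ to 3′ on the strand of the gene, and capitals mark TAAT on either strand (ATTA on the strand shown). They lie at chrX:37754358-37754607 on the plus strand for Rhox5, chrX:137120327-137120576 on the minus strand for Esx1 and chr13:53472781-53473030 on the minus strand for Msx2.
Rhox5: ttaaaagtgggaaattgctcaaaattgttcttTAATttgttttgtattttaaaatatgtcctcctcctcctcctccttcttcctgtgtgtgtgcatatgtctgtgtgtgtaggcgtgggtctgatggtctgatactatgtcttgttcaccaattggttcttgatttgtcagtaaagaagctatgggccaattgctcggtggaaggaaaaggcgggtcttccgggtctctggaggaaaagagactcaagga
Esx1: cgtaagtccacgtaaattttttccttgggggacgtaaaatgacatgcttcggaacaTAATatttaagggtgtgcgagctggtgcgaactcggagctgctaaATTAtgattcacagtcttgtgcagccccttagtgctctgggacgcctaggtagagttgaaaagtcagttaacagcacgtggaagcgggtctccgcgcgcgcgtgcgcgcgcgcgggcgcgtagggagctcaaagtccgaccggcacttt
Msx2: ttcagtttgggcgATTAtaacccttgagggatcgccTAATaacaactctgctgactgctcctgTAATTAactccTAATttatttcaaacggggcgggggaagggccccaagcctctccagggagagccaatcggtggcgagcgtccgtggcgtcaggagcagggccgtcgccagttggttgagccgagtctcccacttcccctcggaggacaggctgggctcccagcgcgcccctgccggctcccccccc
The Rhox5 promoter held 1 TAAT, and 54.8% of 32536 distinct promoters of this length held at least as many. Esx1 held 2, and 30.6% of promoters held at least 2. Msx2 held 5, of which the pair at 187 and 185 bases before the start overlaps as TAATTA, and 5.5% of promoters held at least 5. The octamer ATGCAAAT, the consensus of Oct-family factors, was in none of these windows and in 1.6% of all promoters on either strand. CCAAT, searched on both strands, was matched 3 times in Rhox5, at 102, 99 and 64 bases before the start, and 2.8% of promoters held at least 3. The pair at 102 and 99 overlaps as CCAATTGG, 1 stretch that was counted once on each strand, as in all promoters. The Msx2 window held 1 CCAAT and the Esx1 window none. CpG dinucleotides numbered 4 in Rhox5, 24 in Esx1 and 16 in Msx2, against a median of 6 over all promoters. These are matches of letters, not measured binding sites.

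The file headers place the probes on mouse build mm7. The Rhox6 probe (NM_008955) lies at chrX:32922020-32922079 on the plus strand and the Rhox9 probe (NM_023894) at chrX:32993222-32993281 on the minus strand. The Esx1 probe (NM_007957) lies at chrX:131834651-131834710, minus strand. The Dlx3 probe (NM_010055) lies at chr11:95233486-95233545, plus strand. The Msx2 probe (NM_013601) lies at chr13:52503611-52503670, minus strand. The Rhox5 probe (NM_008818) has no position in the files. Which exon or UTR each probe reads was not analysed here.

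Between 74.3% and 78.1% of spots were well above background in Cy5 and between 68.8% and 78.1% in Cy3, and no member spot was saturated or marked as an outlier. Pou5f1 fell, with log2 ratios between -3.62 and -3.28 on the 4 arrays: it was 11.3-fold lower with dox (adjusted p = 0.0105) and 9.76-fold lower with dox+TCP (adjusted p = 0.0146, limma with Benjamini-Hochberg adjustment). Kdm1a, which encodes LSD1, had log2 ratios of 0.25 ± 0.09 (SE) with dox and 0.04 ± 0.09 with dox+TCP and did not pass the test. The replicate 1 arrays of both groups share a slide, the replicate 2 arrays lie on a slide each, and dox+TCP replicate 2 was scanned on a later day. In what follows a log2 ratio is that of treated over reference on 1 array after normalization, and n is 2 arrays per group.

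All 6 genes were above the reference on all 4 arrays, but only Rhox5 and Msx2 passed the test. The share of all genes above it on all 4 arrays is not given here. For Dlx3 the reference was not well above background on either replicate 1 array. With dox, 2 of 6 rose, against a background of 6.32% of all tested genes called higher, and none fell, against 8.28%. With dox+TCP the same count of 2 of 6 rose, against 7.31%, and none fell, against 8.08%. The median log2 difference of the 6 genes was 2.42 with dox and 2.00 with dox+TCP, and over all tested genes it was -0.0011 and 0.033. Both comparisons use the same reference, so they are given side by side and not as support for each other. The largest mean differences, those of Esx1, Rhox6 and Rhox9, were among those that did not pass, and each was far larger on the replicate 1 arrays than on the replicate 2 arrays. With local backgrounds taken as read no gene passed in either comparison. Median centring moved the median gene to 0.18 with dox, where 4 of the 6 and 4884 higher of 6023 called genes passed, against 1353 of 3127 with loess.

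**Figure D1:**
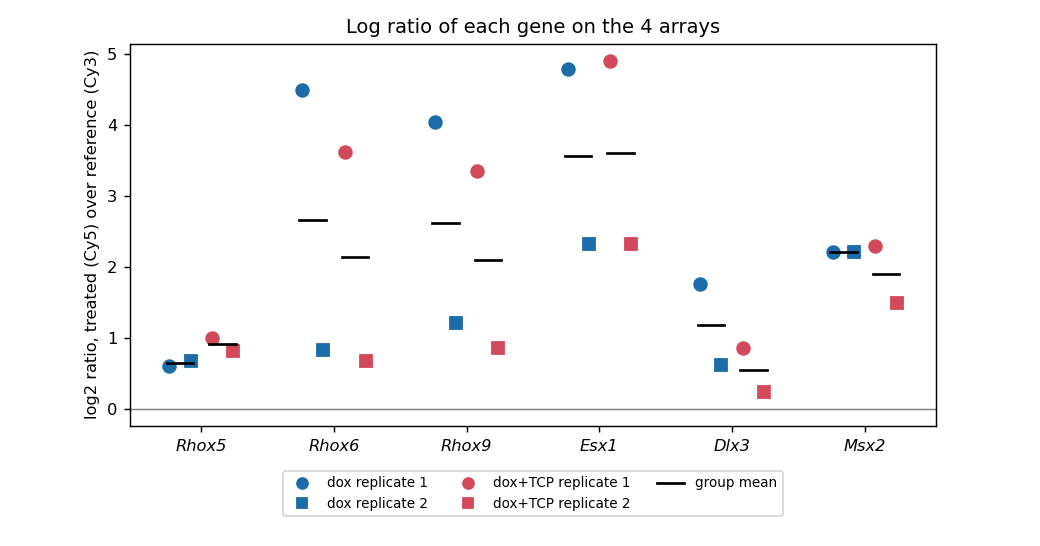
The log2 ratio of treated (Cy5) over reference (Cy3) is plotted for 6 genes on the 4 arrays, with dox in blue, dox+TCP in red, replicate 1 as circles, replicate 2 as squares and group means as black lines. All points lie above 0, and for Rhox6, Rhox9 and Esx1 the replicate 1 points of both groups (3.36 to 4.90) stand well above the replicate 2 points (0.67 to 2.32).

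Rhox6 and Rhox9, nearby members of the Rhox cluster with closely related sequences, had almost the same pattern. Rhox6 had log2 ratios of 4.49 and 0.82 on dox replicates 1 and 2 and of 3.62 and 0.67 on dox+TCP replicates 1 and 2. Rhox9 had 4.04 and 1.20 with dox and 3.36 and 0.85 with dox+TCP. In both genes the replicate 1 arrays were high and the replicate 2 arrays low whatever the treatment, and the dox and dox+TCP groups overlapped. The mean for Rhox6 was 2.66 ± 1.21 (SE) with dox (adjusted p = 0.238) and 2.14 ± 1.21 with dox+TCP (adjusted p = 0.315). For Rhox9 it was 2.62 ± 0.98 with dox (adjusted p = 0.168) and 2.10 ± 0.98 with dox+TCP (adjusted p = 0.239). Neither passed limma's test in either group. Since the genes are close copies, each probe may read RNA of the other, and their values are uncertain to that extent.

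The gap between the replicate numbers lay mostly in the reference channel. Rhox6 had normalized Cy5 levels of 16.49 and 15.90 (log2 intensity) with dox and 15.78 and 15.79 with dox+TCP. In the reference it read 12.00 and 12.16 on the replicate 1 arrays but 15.08 and 15.13 on the replicate 2 arrays. Rhox9 had Cy5 levels of 16.91 and 16.60 with dox and 16.17 and 16.46 with dox+TCP. Its reference levels were 12.86 and 12.82 on the replicate 1 arrays and 15.40 and 15.61 on the replicate 2 arrays. In both genes the treated levels lay within 0.8 of each other, and the reference was low on the replicate 1 arrays and high on the replicate 2 arrays.

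Esx1 had the largest ratios of the 6 genes on every array, with log2 ratios of 4.79 and 2.32 with dox and of 4.90 and 2.32 with dox+TCP. The treated levels were nearly constant, at 13.34 and 13.25 with dox and 13.33 and 13.40 with dox+TCP. The reference again differed by replicate number, at 8.55 and 8.43 on the replicate 1 arrays against 10.93 and 11.08 on the replicate 2 arrays. The mean log2 difference was 3.56 ± 0.92 with dox, an 11.8-fold difference with an adjusted p of 0.0877. With dox+TCP it was 3.61 ± 0.92, 12.2-fold, with an adjusted p of 0.0831. Neither passed limma's test at 0.05, and the 95% intervals ran from 0.94 to 6.17 and from 1.00 to 6.23. Median centring brought both under the threshold (adjusted p = 0.0253 and 0.0322), and local backgrounds as read lowered the dox mean to 2.16.

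Rhox5 rose by a small and even amount. Its log2 ratios were 0.60 and 0.67 with dox and 1.00 and 0.81 with dox+TCP, so both dox+TCP arrays lay above both dox arrays. The mean was 0.64 ± 0.09 with dox, 1.55-fold (adjusted p = 0.0313), and 0.91 ± 0.09 with dox+TCP, 1.87-fold (adjusted p = 0.0203). Its reference level was steady, at 16.77 and 16.62 on the replicate 1 arrays and 16.80 and 16.65 on the replicate 2 arrays, unlike that of Rhox6 and Rhox9 in the same cluster. It was also among the brightest spots, with between 34 and 45 of the 41174 probes brighter on an array, which describes the spot and is no comparison of expression.

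At that brightness the size of the rise rests on the normalization. The scanned Cy5 over Cy3 ratio of the Rhox5 spot was 3.87 and 5.61 with dox and 5.10 and 4.54 with dox+TCP, where the median spot had 2.00, 2.06, 1.91 and 1.58. After loess the same ratios were 1.52, 1.59, 2.00 and 1.76. With the scanner's own log ratio the mean fell to 0.40 with dox (adjusted p = 0.147) and 0.57 with dox+TCP (adjusted p = 0.0689), and neither passed. Median centring gave 1.56 with dox (adjusted p = 0.00796) and 1.71 with dox+TCP (adjusted p = 0.00896), and local backgrounds as read gave 1.26 with dox (adjusted p = 0.486). The dox call also missed the threshold without dox replicate 1 (adjusted p = 0.0533), without dox replicate 2 (0.0800) and with any dox+TCP array left out (0.124). The dox+TCP call was lost without dox+TCP replicate 1 (0.262) or 2 (0.234).

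Msx2 rose most evenly with dox, with log2 ratios of 2.22 and 2.21, and had 2.30 and 1.49 with dox+TCP. Its mean was 2.21 ± 0.22 with dox, 4.64-fold (adjusted p = 0.0201), and 1.89 ± 0.22 with dox+TCP, 3.72-fold (adjusted p = 0.0235). Treated levels were 10.55 and 11.14 with dox and 10.58 and 10.14 with dox+TCP, and reference levels were between 8.28 and 8.93. Its 10 spots give the error within an array: their SD was 0.04, 0.09, 0.06 and 0.06 on dox 1, dox 2, dox+TCP 1 and dox+TCP 2. The 10 spots of dox+TCP replicate 2 lay between 1.42 and 1.57, below the 30 spots of the other arrays, which lay between 2.08 and 2.37. That array is also the one scanned on a later day, and the part of the day in its value was not tested. Without dox+TCP replicate 1 or 2 no gene at all passed for either comparison with the reference, and Msx2 had an adjusted p of 0.110 with dox and of 0.260 or 0.234 with dox+TCP. With local backgrounds as read its means were 1.19 and 0.82, and neither passed.

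**Figure D2:**
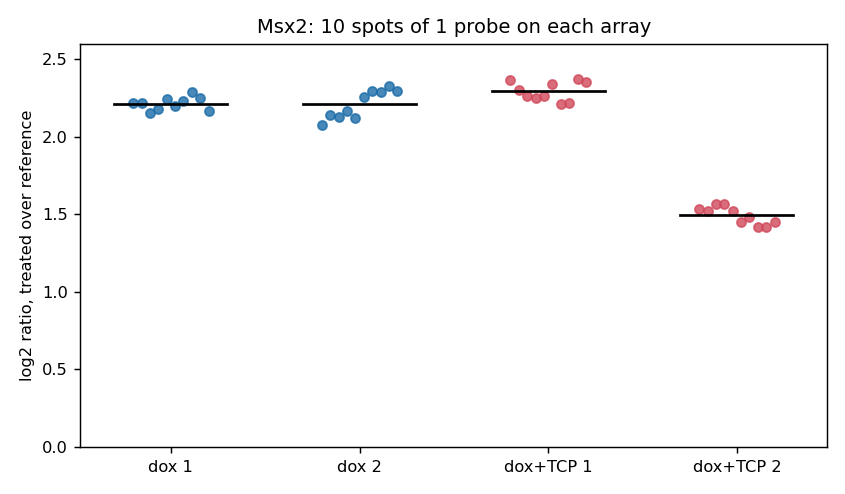
The log2 ratio of treated over reference is plotted for the 10 Msx2 spots on each of the 4 arrays, with dox in blue and dox+TCP in red and black lines at the array means. The spots of dox+TCP replicate 2 (1.42 to 1.57) form a group of their own below those of the other 3 arrays (2.08 to 2.37).

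Dlx3 was the only one of the 6 genes that was at background in a channel of any array. Its log2 ratios were 1.76 and 0.61 with dox and 0.85 and 0.23 with dox+TCP, and the groups overlapped. Treated levels were 8.29 and 7.43 with dox and 7.25 and 7.08 with dox+TCP, above background on all 4 arrays. The reference was not well above background on either replicate 1 array, with scanned signals of 49.3 and 43.0 over a local background of 22, so it was measured on 1 of 2 arrays of each group. It was above background on both replicate 2 arrays, at levels of 6.82 and 6.84. The mean was 1.18 ± 0.34 with dox (adjusted p = 0.108) and 0.54 ± 0.34 with dox+TCP (adjusted p = 0.362), and neither passed. With the reference near background these means moved with its treatment: they were 2.55 and 1.48 with the scanner's ratio and 0.30 and 0.05 with local backgrounds as read, and none of these passed. Of the genes reported downstream of Dlx3, Esx1 is given above. Pgf had log2 ratios of -0.23 and -0.26 with dox and 0.34 and 0.34 with dox+TCP, which did not pass against the reference (adjusted p = 0.121 and 0.0632).

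The reference channel differed between the replicate pairs for 3 of the 6 genes. On the mean of the replicate 2 arrays it was 8.12-fold brighter than on the replicate 1 arrays for Rhox6, 6.34-fold for Rhox9 and 5.72-fold for Esx1. Such differences past 2-fold were found in 1.12% of 21356 genes, and only 5 genes had a larger one than Rhox6, 13 than Rhox9 and 18 than Esx1. Msx2 had a log2 difference of 0.48, Dlx3 0.37 and Rhox5 0.03, where the median gene had 0.07 and the middle 95% of genes lay between -0.73 and 0.75. In the treated channel the same difference was -0.29 for Rhox6, -0.01 for Rhox9 and -0.01 for Esx1, and treated levels past 2-fold higher on the replicate 2 arrays were found in 1.11% of genes and in none of the 6. The reference channels of the replicate 1 arrays correlated with each other at r = 0.999 over all genes, those of the replicate 2 arrays at 0.989, and across replicate numbers the values ran from 0.981 to 0.989. The labels do not say how many reference extracts there were, and the difference has no replicate check and was not tested.

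**Figure D3:**
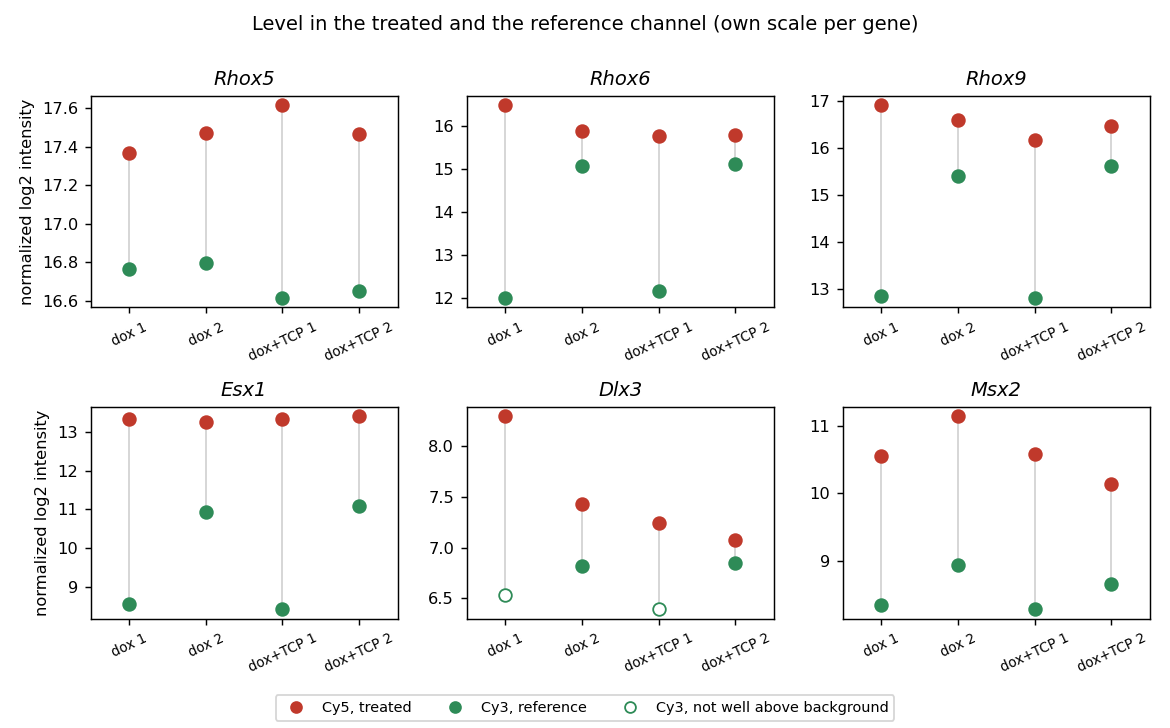
Normalized log2 intensities of the treated (Cy5, red) and reference (Cy3, green) channel are plotted on the 4 arrays, each gene on its own scale, with an open symbol where the reference was not well above background. For Rhox6, Rhox9 and Esx1 the red points are nearly level while the green points are 2.37 to 3.08 higher on the replicate 2 arrays.

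**Figure D4:**
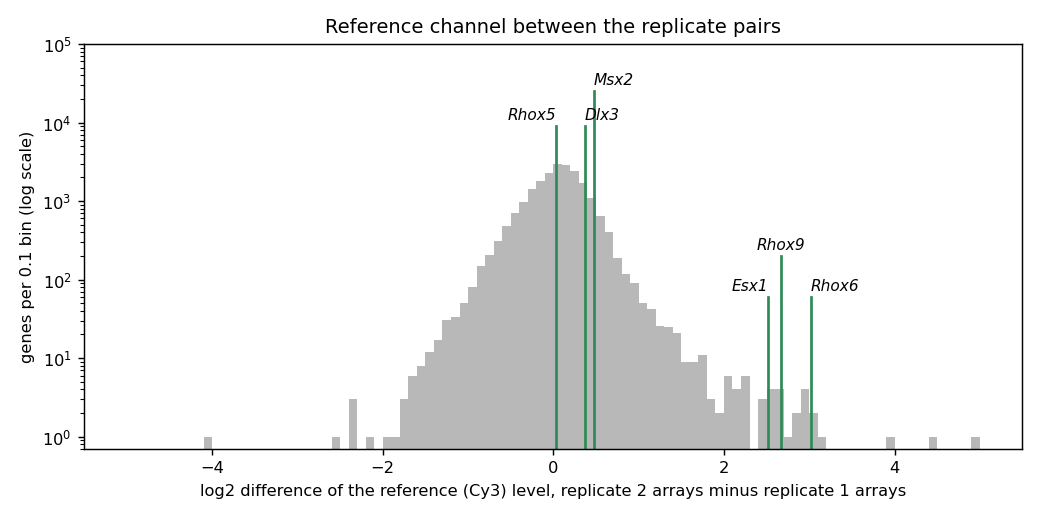
The histogram counts genes (log scale) by the log2 difference of the reference level, replicate 2 arrays minus replicate 1 arrays, and green lines mark the 6 genes. Rhox5, Dlx3 and Msx2 lie in the body of the distribution, between 0.03 and 0.48, and Esx1, Rhox9 and Rhox6 in its thin right tail, between 2.51 and 3.02.

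Markers of trophoblast were among the genes brighter in the replicate 2 reference, where 59.6% of all genes were brighter at all and 1.12% past 2-fold. Of 13 markers of trophoblast stem and progenitor cells, 11 were brighter in the replicate 2 reference, 5 of them past 2-fold, with a median log2 difference of 0.51. Gata2 and Gata3, transcription factors of early trophoblast, were 1.46 and 1.14 higher there. The summed level of the 13 was 14.73 and 14.68 on the replicate 1 arrays and 15.39 and 15.09 on the replicate 2 arrays. Of 15 markers of spongiotrophoblast, glycogen and giant cells, 14 were brighter, with a median of 0.82, and of 14 labyrinth markers 12, with a median of 0.48. Past 2-fold were 4 of the former and 2 of the latter. Of 18 fibroblast markers, which feeder cells would bring, 6 were brighter and the median was -0.31, with summed levels of 15.56 and 15.59 against 15.07 and 15.63. Of 20 endoderm markers 14 were brighter, with a median of 0.28 and summed levels of 15.43 and 15.40 against 15.36 and 15.35. Of 15 mesoderm and ectoderm markers 10 were brighter, with a median of 0.25. Past 2-fold were 0 of the fibroblast, 2 of the endoderm and 1 of the mesoderm and ectoderm markers. All 13 trophoblast stem and progenitor markers were above background. In the labyrinth, spongiotrophoblast, fibroblast, endoderm, and mesoderm and ectoderm lists, 1 gene each was above background on no array. Of 20 spongiotrophoblast, glycogen and giant cell genes on the array 15 were tested, and Tpbpa and Tpbpb were too dim to be among them. The part of other cells in the reference of the 3 genes was not tested.

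Each treated level was also set against the reference of 1 replicate pair alone, an alternative added after seeing the data. Against the replicate 1 reference, all 6 genes passed with dox and 5 with dox+TCP, all but Dlx3. Of all 21419 genes, 1402 were called higher there with dox and 1426 with dox+TCP. The Dlx3 reference was not well above background on those arrays, so its value there (1.40 with dox) is set against background and not against a measured level. Against the replicate 2 reference, Rhox6, Rhox9, Esx1 and Msx2 passed with dox, and Rhox5, Esx1 and Msx2 with dox+TCP. With that reference 836 of all 21419 genes were called higher with dox and 768 with dox+TCP. With dox, Rhox6 was 4.12 ± 0.20 (SE) above the replicate 1 reference (adjusted p = 0.00121) and 1.09 ± 0.20 above that of replicate 2 (0.0322). Rhox9 was 3.91 ± 0.18 above the former (adjusted p = 0.00121) and 1.25 ± 0.18 above the latter (0.0181), and Esx1 was 4.81 ± 0.16 (adjusted p = 0.000967) and 2.29 ± 0.16 (0.00392) above them. Each gene thus lay above either reference, and the size differed several-fold with the reference chosen. These errors come from the treated arrays alone and hold no spread of the reference.

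**Figure D5:**
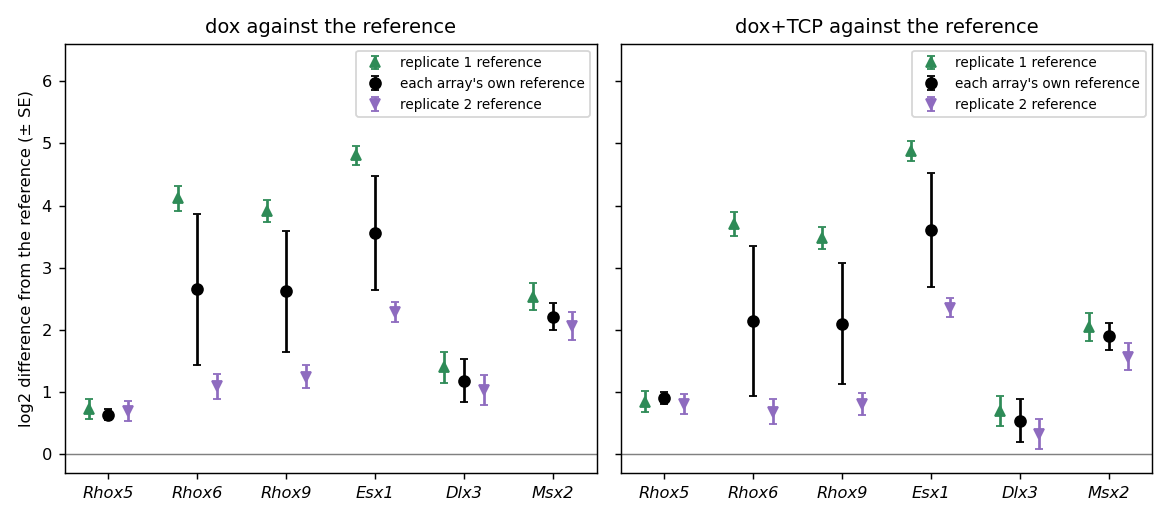
The mean log2 difference from the reference (± SE of limma's fit) is plotted for dox (left) and dox+TCP (right) with the replicate 1 reference (green), each array's own reference (black) and the replicate 2 reference (purple). Rhox6, Rhox9 and Esx1 move by more than 2 on the log2 scale between references, with dox from 4.12 to 1.09, 3.91 to 1.25 and 4.81 to 2.29, while Rhox5, Dlx3 and Msx2 move by less than 0.5.

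TCP made no difference that passed the test for any of the 6 genes. With dox+TCP against dox, 0 of 6 genes passed, as did 0 of all 21419 genes, a background of 0%, with 943 genes at an unadjusted p under 0.05 and none of the 6 among them (limma). The difference for Rhox5 was 0.27 (95% interval -0.09 to 0.63), for Msx2 -0.32 (-1.20 to 0.56) and for Dlx3 -0.64 (-2.02 to 0.73). For Esx1 it was 0.05 (-3.65 to 3.75), for Rhox6 -0.51 (-5.38 to 4.35) and for Rhox9 -0.52 (-4.44 to 3.40). The last 3 intervals reach past 3 on the log2 scale in either direction, in a fit that takes no account of the replicate number. Pgf differed by 0.59 at an unadjusted p of 0.0062 and an adjusted p of 0.996.

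Within the slide that the replicate 1 arrays share, dox+TCP minus dox was 0.40 for Rhox5, -0.87 for Rhox6, -0.69 for Rhox9, 0.11 for Esx1, -0.91 for Dlx3 and 0.08 for Msx2. Between the replicate 2 arrays, on slides of their own, it was 0.14, -0.15, -0.35, -0.01, -0.38 and -0.72 in the same order. Rhox6, Rhox9 and Dlx3 were thus lower and Rhox5 higher with TCP in both pairs, while Esx1 and Msx2 changed sign. How many of all genes kept their sign in both pairs was not counted, so this is a description only. The labels do not tie the replicate numbers across the groups. The log ratios of the 2 groups did not overlap for Rhox5, higher with TCP, as for 20.2% of all genes, and for none of the others, where 12.9% of all genes were lower without overlap. In the treated channel alone, levels of Rhox6, Rhox9 and Dlx3 were lower on both dox+TCP arrays than on either dox array, by means of -0.41, -0.44 and -0.70. Such a lower level without overlap was found in 11.6% of all genes, and none of the 6 passed in that channel.

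Among the other Rhox genes, 4 were tested, and 1 fell with dox, against 8.28% of all genes. Rhox2a had log2 ratios of -0.71 and -0.64 with dox (adjusted p = 0.0327) and of -0.17 and -0.41 with dox+TCP (adjusted p = 0.144). Its dox call was lost with median centring (-0.21, adjusted p = 0.281) and with the scanner's ratio (-0.65, adjusted p = 0.0606). Rhox4e had log2 ratios of 1.67 and 0.83 with dox (adjusted p = 0.0658) and 1.22 and 0.61 with dox+TCP (adjusted p = 0.115). Rhox13 had means of -0.33 with dox and 0.19 with dox+TCP. The median of the 4 was -0.16 with dox and 0.08 with dox+TCP. In the reference all 4 were brighter on the replicate 2 arrays, none past 2-fold. Many Rhox genes occur in near-identical copies, those of the Rhox2 and Rhox4 groups among them, so their probes may read several.

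Of the other Dlx and Msx genes 5 were tested, and none passed in either comparison with the reference, with medians of 0.18 and 0.12. Dlx4 had log2 ratios of 0.61 and 0.15 with dox and 0.42 and 0.08 with dox+TCP, and its reference was not well above background on any array. Dlx5 had means of 0.23 and 0.32 and Msx1, the closest relative of Msx2, of -0.25 and -0.17. Median centring called none of these 5, and the scanner's ratio called 1 higher in each comparison. Of all 21419 genes the scanner's ratio called 1650 higher with dox and 1686 with dox+TCP.

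BMP signalling, which controls Msx2 in many tissues, had 26 tested genes. With dox 1 rose and 1 fell, against 6.32% and 8.28% of all genes, and with dox+TCP 4 rose and 1 fell, against 7.31% and 8.08%. Median centring called 8 higher and 2 lower in each comparison. Of all 21419 genes it called 4884 higher with dox and 4001 with dox+TCP. Bmp8b, a ligand, had log2 ratios of 1.56 and 1.35 with dox (adjusted p = 0.0212) and 2.12 and 1.65 with dox+TCP (adjusted p = 0.0175). Bmp4, the ligand that embryonic stem cells use to block neural fate, had -1.54 and -1.04 with dox (adjusted p = 0.0237) and -1.29 and -1.23 with dox+TCP (adjusted p = 0.0241). Id2, an inhibitor of basic helix-loop-helix factors and a target of the pathway, rose by 0.97 with dox+TCP (adjusted p = 0.0298) and had 0.27 with dox (adjusted p = 0.286). The other Id genes of the list lay below the reference with dox: Id1 by -2.30, Id3 by -0.49 and Id4 by -0.26. None of them passed limma's test with dox (adjusted p = 0.0906, 0.380 and 0.294). With dox+TCP, Id1 had -2.37 and -1.16, Id3 -0.67 and -0.32, and Id4 0.09 and -0.24. Twsg1, an extracellular modulator of BMPs, had 0.62 with dox (adjusted p = 0.0532). The median of the 26 was -0.12 and 0.04.

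Markers of placental cells rose and fell in small numbers, to be read against 6.32% of all genes called higher and 8.28% lower with dox, and 7.31% and 8.08% with dox+TCP. Median centring called more of these, and also more over the whole array: 4884 of all 21419 genes higher with dox and 4001 with dox+TCP. Of the 13 trophoblast stem and progenitor markers, 1 fell and none rose with dox, and 1 rose (Id2) and 1 fell with dox+TCP. The one that fell was Esrrb, a nuclear receptor that embryonic stem cells use too, at -2.72 (adjusted p = 0.0120) and -2.49 (adjusted p = 0.0159). Gata2 had 3.10 and 1.60 with dox (adjusted p = 0.0593) and Gata3 2.07 and 0.96 (adjusted p = 0.0616), again higher on the replicate 1 array. The medians were 0.36 and 0.49, and median centring called 7 higher with dox and 4 with dox+TCP.

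Of 14 labyrinth markers 3 rose and 3 fell with dox, and 2 rose and 2 fell with dox+TCP. With median centring 7 were higher and 2 lower with dox, and 5 and 2 with dox+TCP. Ovol2, a zinc finger factor of the labyrinth, had 1.08 (adjusted p = 0.0190) and 1.32 (0.0169). Fzd5, a Wnt receptor, had -1.17 (0.0208) and -1.31 (0.0186), and Slc16a3, a monocarboxylate transporter of the syncytiotrophoblast, -1.73 (0.0316) and -1.72 (0.0311). Of 15 spongiotrophoblast, glycogen and giant cell markers 2 rose and none fell in each comparison: H19 by 1.66 (0.0371) and 1.77 (0.0334), and Igf2, the growth factor beside it, by 2.48 (0.0456) and 2.35 (0.0489). Median centring called 9 of the 15 higher with dox and 8 with dox+TCP, and the scanner's ratio 5 and 3. Of all 21419 genes, median centring called 4884 and 4001 higher and the scanner's ratio 1650 and 1686. Cdkn1c had 0.80 with dox (0.0631) and Bhlhe40 0.69 with dox+TCP (0.0544). The values in parentheses in this account are adjusted p of limma, dox first where there is a pair.

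Markers of other cells were mixed. Of all genes, 6.32% were called higher and 8.28% lower with dox, and 7.31% and 8.08% with dox+TCP. Of 18 fibroblast markers none rose and 3 fell with dox: Thy1 (-1.89), S100a4 (-1.41) and Vim (-1.33). With dox+TCP 1 rose, Pdgfrb (1.15), and 1 fell, Thy1 (-1.12), while Tagln had 0.90 and did not pass. Of 20 endoderm markers 3 rose and 1 fell in each comparison: the basement membrane collagens Col4a1 (0.99 and 1.33) and Col4a2 (1.08 and 1.13) rose, and the receptor Cubn fell (-2.23 and -1.58). Of 15 mesoderm and ectoderm markers 1 rose and 2 fell in each: Tbx6 rose (0.96 and 1.25), and Snai2 (-1.29 and -0.44) and Foxd3 (-3.28 and -2.94) fell. Some of these calls were lost in other settings: that of Vim with median centring (-0.72, adjusted p = 0.132), that of Snai2 with dox+TCP under median centring (-0.15, adjusted p = 0.405) and the scanner's ratio (-0.53, adjusted p = 0.0974), and that of Pdgfrb without background subtraction (1.18, adjusted p = 0.0537). None of the list genes called in either comparison changed sign in these 3 settings. Their part in the values of the 6 genes was not tested.

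Over the 8 levels of each gene (4 arrays, 2 channels, each centred on its mean), Rhox6 and Rhox9 were nearest to each other among the 6, at a distance of 0.49 and r = 0.996, and Esx1 came next, at 1.86 from Rhox6 and 1.82 from Rhox9. Rhox5 lay 3.85 from Rhox6 and 3.54 from Rhox9. Of all genes with a symbol outside the 6, those nearest to Rhox6 were Krt18 (distance 0.69, r = 0.993), Krt8 (0.77) and Pygl (1.21), the first 2 being keratins of simple epithelia and the last a glycogen phosphorylase. The same 3 were nearest to Rhox9, at 0.81, 0.80 and 0.78. Esx1 was nearest to Krt18 (1.29), Fabp3, a fatty acid binding protein (1.72), and Mbp (1.73). Dlx3 was nearest to Cdc42ep1 (0.29), Vgll1, a cofactor of TEAD factors (0.32), and the linker histone gene H1f0 (0.36). Msx2 was nearest to Rffl (0.35), Katnal2 (0.37) and Smim1 (0.47). Rhox5 was nearest to Atp6v1f, a proton pump subunit (0.17), Spg11 (0.18) and Mpzl1 (0.18). The 8 values share 4 arrays and the reference, and these distances are a description only.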

How the data were processed

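RNA of ZHBTc4 cells was read on 4 two-colour arrays, 2 per group. Spot and background intensities were deposited by the authors as scanned with Agilent Feature Extraction 10.1.1.1, per the file headers and the submitters' processing notes. The log10 ratios in the same files were dye-normalized by that software, per the file headers, and the deposited table of the series held them to within 0.005, with column medians of 0, 0.0111, 0 and 0.

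Here a local background above 2 times the median of its array and channel was set to that median, signals were corrected with normexp (offset 50) and loess (limma 3.58.1, R 4.3.3), and 1639 control spots and outlier spots were left out. Levels by channel were made comparable between arrays with Aquantile. Where a gene had several tested probes, the brightest stood for it. Symbols followed GRCm38.p6 (22951 probes by accession, 6659 by symbol, 3109 by synonym, 8455 kept). limma fitted a mean per group over all 4 arrays, with Benjamini-Hochberg adjustment over 21419 genes at 0.05. The fit was tested on simulated data with independent noise on each array. Those data hold no difference of the reference between replicate numbers, so they do not cover that feature of the arrays.

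The 6 genes, the gene lists and the settings were chosen with earlier results of these data known. Named are the 6 genes, Pou5f1, Kdm1a, Pgf, from each list the 3 genes of smallest adjusted p in each comparison with the reference, and per gene the 3 nearest in profile. Id1, Id3 and Id4 are named beside Id2, and Tpbpa and Tpbpb as markers that were not tested. Replicates are biological per the labels. 4 arrays limit the precision.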

Additional observations from a re-analysis of the deposited data

How the results depend on the processing

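Over 18 alternatives the 6 genes stayed above the reference in every comparison with it (17 for Dlx3, which a filter on both channels left out), and 0 of 6 passed for dox+TCP against dox in all 16 alternatives, Cy5 levels alone among them. Several of these alternatives change only the filter, the choice of probe or the error and leave the mean as it was, so the direction could not change there. For each group, the fit on its own arrays and the fits without an array of the other group are also the same fit. The number of the 6 that passed, 2 with dox and 2 with dox+TCP, moved with the settings. It was 0 and 0 with local backgrounds as read, where no gene passed (1901 and 1966 at an unadjusted p under 0.05), and 1 and 1 with the scanner's ratio. With dox it was 4 with median centring, 0 with only the arrays of the group, 6 against the replicate 1 reference and 4 against the replicate 2 reference; with dox+TCP it was 5 against the replicate 1 reference. Without 1 array it ranged from 0 to 2 with dox and from 0 to 3 with dox+TCP.

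With the replicate number as a block, 6 passed with dox and 5 with dox+TCP, and calls over all genes went from 3127 to 4873 and from 3296 to 5144. The block takes up the gap between replicate numbers, which for Rhox6, Rhox9 and Esx1 lay mostly in the reference. Their errors against the reference therefore leave that difference out, and that of Esx1 with dox went from 0.92 to 0.089. For dox+TCP against dox the block narrowed the SE to 0.13 for Esx1, 0.23 for Rhox6 and 0.15 for Rhox9, from 1.30, 1.71 and 1.38. In that fit 0 of 6 passed limma's test, as did 0 of all 21419 genes. Rhox9 and Dlx3 had unadjusted p of 0.0344 and 0.0347 and an adjusted p of 0.655 (limma). Of all genes, 1627 had an unadjusted p under 0.05 there. The labels do not tie the numbers across groups, and replicate 2 minus replicate 1 correlated between the groups at r = 0.47 over all genes. Over all genes median centring called 6023 genes with dox, 4884 of them higher, against 3127 and 1353, and moved the median gene to 0.18; with dox+TCP it called 5107 (4001 higher) against 3296 (1565). Slide as a random block could not be fitted by limma with 4 arrays. Against the replicate 1 reference 3074 genes passed with dox and 3256 with dox+TCP, and against the replicate 2 reference 1981 and 1894. Only dox+TCP arrays gave 5935 and only dox arrays 0 (5142 at an unadjusted p under 0.05).

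Values for dox+TCP against dox that changed sign were Rhox5 at -0.40 (backgrounds as read), Esx1 at -0.13 (median centring), and, over the fits without 1 array, Esx1 (range -1.24 to 1.35), Rhox6 (-2.35 to 1.32), Rhox9 (-1.94 to 0.90) and Msx2 (-0.72 to 0.082). The cause was not tested. Of 107 single values against the reference per group, 81 with dox and 89 with dox+TCP kept direction and side of the threshold. These counts include the settings that leave the mean as it was and the repeated fits, so they overstate how much was varied.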
